A study of Homo sapiens with 4 samples.

Results

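Chromosome 20 carried 483 of the 8890 H3K27me3 peaks of DMSO-treated HaCaT cells and 736 of the 13155 peaks of AKBA-treated cells. The peaks described here are all those on this chromosome in both lists, 1219 of 22045, and they were divided at the centromere by position. Peaks ending before base 26400000 of the human build hg19 belong to the short arm, and peaks starting after 29400000 to the long arm. No peak lay between these limits, so every peak of the chromosome has an arm. The short arm held 147 DMSO and 237 AKBA peaks, and the long arm 336 and 499. The chromosome was chosen by its number of peaks per Mb, the highest in both lists, so its density is a description and supports nothing further.

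The cells are HaCaT, an immortalised and aneuploid line of human keratinocytes. They were grown for 12 hours in medium with AKBA, commonly the abbreviation of an acetylated boswellic acid, or in medium with the solvent DMSO, at a dose that no source used here states. Each condition had 1 chromatin immunoprecipitation library for H3K27me3, with 1 peak list, and 1 input DNA library that has no values here. Differences between the conditions therefore have no replicate check and are given without p-values. Read depth cannot be read from a peak list, and a more sensitive peak call in 1 library and an effect of AKBA cannot be told apart. Peak density is per length of reference sequence, and the number of copies of chromosome 20 in these cells was not measured here.

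H3K27me3 is a trimethyl mark on histone H3 written by Polycomb repressive complex 2. It covers silent genes, above all genes for developmental transcription factors that the cell type does not use, often as broad domains built of several neighbouring peaks. The mark is bound by Polycomb repressive complex 1, which compacts the chromatin. As background on this chromosome, the RefSeq gene table of GRCh38.p14 lists NKX2-4, NKX2-2, PAX1 and FOXA2 as consecutive protein-coding genes of chromosome 20. These encode factors of the developing neural tube, skeleton and gut, and such genes are known carriers of the mark in cells that do not express them. The peaks are on another build than this table, so no peak was assigned to these or any other genes, regions are named by hg19 position, and the cell type could not be checked against marker genes.

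The chromosome was the densest of 23 in both lists, with 7.69 DMSO and 11.7 AKBA peaks per Mb between its first and last peak. Chromosome 17, the next in both lists, had 6.11 and 8.63. The small gene-dense chromosomes 22 and 19 were lower, chromosome 22 with 4.72 and 7.48 and chromosome 19 with 4.20 and 5.77. By covered length chromosome 20 was again first, with 7.03 kb of DMSO peaks and 13.6 kb of AKBA peaks per Mb, against 5.79 and 10.6 kb on chromosome 17. The lead narrowed when 5 Mb at both ends of every chromosome's span were left out, an alternative chosen after seeing the data. Chromosome 20 then had 5.98 DMSO and 8.88 AKBA peaks per Mb, chromosome 17 had 5.56 and 7.93, and chromosome 15, then next in the AKBA list, had 5.37 and 8.36. The median width of its peaks was 556 bp in the DMSO list, which ranked 11 among the 23 chromosomes, and 784 bp for AKBA peaks, which ranked 6. By the share of peaks of 2 kb or more it ranked 2 in the DMSO list, with 11.8% against 9.43% in the whole list, and 5 in the AKBA list, with 15.6% against 14.0%.

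**Figure D1:**
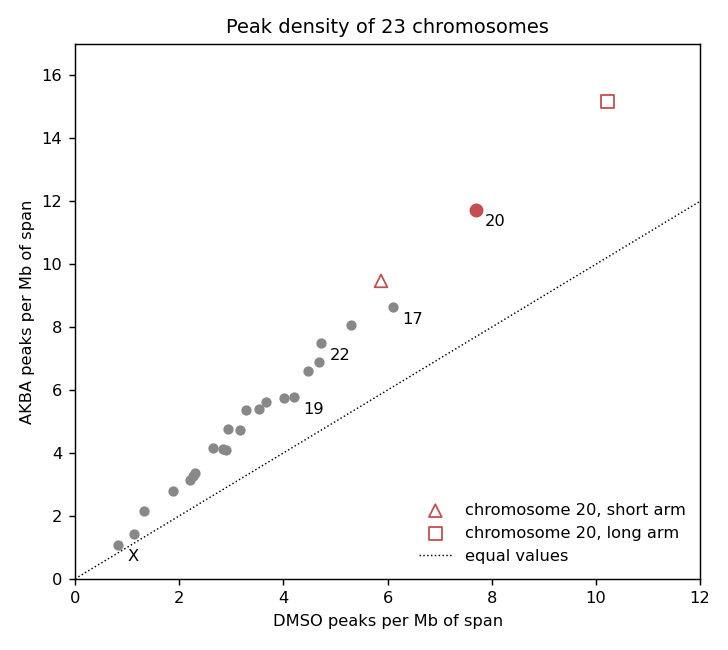
DMSO peaks per Mb (x axis) against AKBA peaks per Mb (y axis) for the 23 chromosomes with peaks, as filled points, with the arms of chromosome 20 as open symbols and a dotted line of equal values. Chromosome 20 lies at 7.69 and 11.7, its long arm at 10.2 and 15.2 and its short arm at 5.87 and 9.47, and the points of all chromosomes lie above the line.

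The arms differed in density in both lists. From its first to its last peak, the long arm spanned 32.9 Mb and had 10.2 DMSO and 15.2 AKBA peaks per Mb. The short arm spanned 25.03 Mb and had 5.87 and 9.47 peaks per Mb. The long arm was thus 1.74 times as dense in the DMSO list and 1.60 times in the AKBA list. It held 69.6% of the chromosome's DMSO peaks (exact 95% Clopper-Pearson interval 65.2 to 73.6%) and 67.8% of its AKBA peaks (64.3 to 71.2%), on 56.8% of the summed span. Intervals of shares here and below cover counting error only and treat peaks as independent, which neighbouring peaks are not. By covered length the contrast in the DMSO list was smaller, with 8.57 kb per Mb on the long arm and 6.38 on the short arm, a ratio of 1.34. In the AKBA list it was 17.4 against 11.4 kb per Mb, a ratio of 1.53.

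Most of the long arm's excess lay in its last 7 Mb. From 56 Mb to the end there were 173 DMSO and 255 AKBA peaks, 51.5% and 51.1% of the long arm's peaks. This stretch, which was marked off after its values were seen, had 24.9 DMSO and 36.7 AKBA peaks per Mb. The remaining 25.9 Mb of the long arm had 6.28 and 9.41 peaks per Mb, close in value to the 5.87 and 9.47 of the short arm. Inside the stretch the marking was not even. The window from 60 to 61 Mb held 3 DMSO and 4 AKBA peaks, whereas the windows on either side of it held 20 and 44 peaks (59 to 60 Mb) and 36 and 56 peaks (61 to 62 Mb).

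Counted in windows of 1 Mb by peak centre, the densest window lay between 57 and 58 Mb, with 42 DMSO and 55 AKBA peaks. It ranked 8 by peaks of both lists among the 2122 windows of the genome with a peak. The window from 61 to 62 Mb followed with 36 and 56 peaks and rank 9, and the window from 58 to 59 Mb had 28 and 39 and rank 19. The densest windows of the short arm stood at its outer end and toward the centromere. The first Mb of the chromosome had 16 DMSO and 35 AKBA peaks, the window from 2 to 3 Mb had 16 and 29, and the window from 22 to 23 Mb had 15 and 26. Windows with at least 40 peaks of both lists together numbered 9 on chromosome 20, 16.4% of its windows with a peak. The share was 3.77% of all windows with a peak, those of chromosome 20 included. This contrast restates the density by which the chromosome was chosen.

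Both lists placed their peaks in nearly the same windows. The 10 densest windows of each list had 9 in common and held 49.1% of the chromosome's DMSO peaks and 49.9% of its AKBA peaks. In either list 11 windows were enough for 50% of the peaks. Over the 55 windows with a peak, Spearman's rho between DMSO and AKBA peak numbers was 0.93. The windows share their mappable sequence and base composition in both libraries, so this is a description of the chromosome. The median window had 3 DMSO and 5 AKBA peaks on the short arm, and 7 and 8.5 on the long arm.

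**Figure D2:**
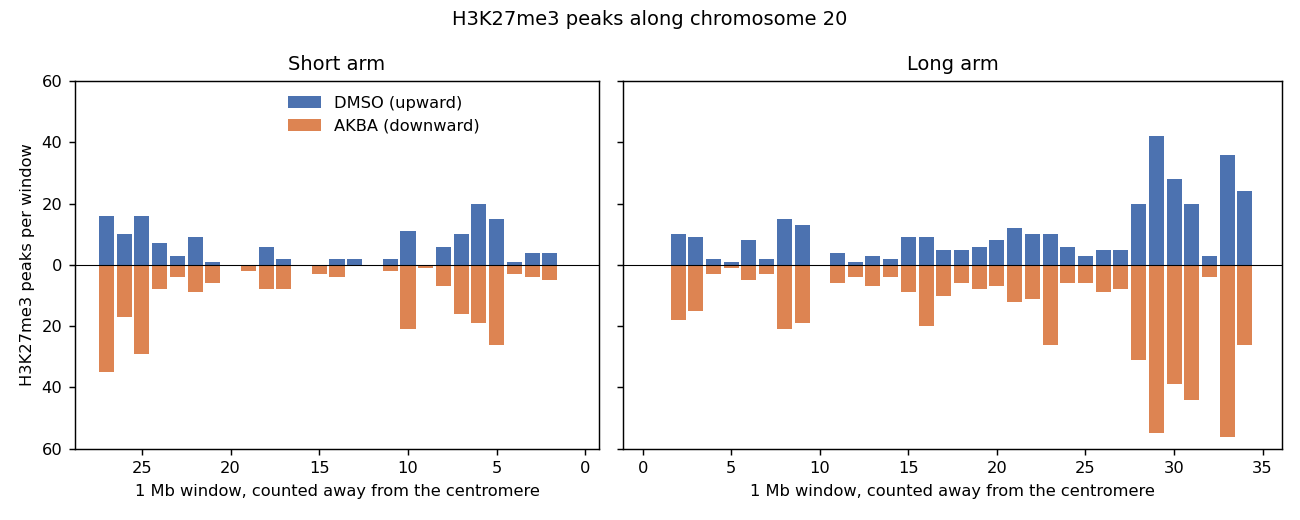
Number of H3K27me3 peaks centred in each 1 Mb window (y axis) against the window's order away from the centromere (x axis), for the short arm on the left and the long arm on the right, with DMSO peaks drawn upward and AKBA peaks downward. The short arm peaks at 20 DMSO and 35 AKBA peaks in different windows, and the long arm reaches 42 and 56 near its end.

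Several stretches of the short arm had no peak at all. The windows from 7 to 8, 11 to 12 and 15 to 16 Mb were empty in both lists. The longest stretch without a peak outside the centromere ran for 2.53 Mb, at chr20:14104170-16636299, and the next for 2.22 Mb, at chr20:10342264-12560432. The window from 38 to 39 Mb, on the long arm, was empty too. Across the centromere the peak-free stretch was 4.90 Mb, chr20:25167167-30063272. The peaks on its borders were present in both lists. On the short-arm side a DMSO peak of 502 bp lay inside an AKBA peak of 572 bp, and on the long-arm side a DMSO peak of 295 bp overlapped an AKBA peak of 565 bp. The DMSO peaks at these borders scored 2.82 and 2.35, below their list's median of 3.02. The AKBA peaks scored 3.21 and 2.84, above and below their list's median of 2.99. The score was set by the authors for each peak, and its scale is not stated. It is used to rank peaks within a list and, as an alternative setting, with a common minimum of 3 in both lists. Whether a score of 3 means the same in both lists is not known.

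There were 1.61 times as many AKBA as DMSO peaks on the short arm (95% interval 1.31 to 1.99) and 1.49 times as many on the long arm (1.29 to 1.71). Both intervals include the ratio of 1.48 over all chromosomes. In covered length the order of the arms was the other way round. On the short arm 159.6 kb were covered in the DMSO list and 284.5 kb in the AKBA list, a ratio of 1.78, with mean widths of 1086 and 1200 bp. The long arm had 281.9 and 572.3 kb, a ratio of 2.03, with mean widths of 839 and 1147 bp. Over all chromosomes the ratio of covered length was 1.94. Merging the peaks of a list within 5 kb ended this order, with ratios of 2.03 on the short arm and 2.01 on the long arm. With the 8890 highest-scoring peaks taken from each list the peak ratios were 1.14 and 1.07 and the length ratios 1.48 and 1.68 on the short and the long arm.

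More AKBA than DMSO bases were found in 22 of the 23 windows with a peak on the short arm and in 31 of 32 on the long arm. Together this was 96.4% of windows (interval 87.5 to 99.6%), against 86.1% of all windows of the genome. The median window with a peak held 6 DMSO and 8 AKBA peaks on chromosome 20 against 2 and 3 in the genome. AKBA bases exceeded DMSO bases by most between 57 and 58 Mb, with 63.73 kb covered by AKBA peaks and 25.04 kb by DMSO peaks. The windows from 61 to 62 Mb, with 78.7 and 50.1 kb, and from 59 to 60 Mb, with 33.0 and 7.80 kb, came next. In the other direction there were 2 windows. From 14 to 15 Mb the DMSO list had 2 peaks with 0.911 kb and the AKBA list had none. From 46 to 47 Mb the DMSO list covered 4.23 kb with 5 peaks and the AKBA list 3.41 kb with 6.

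The difference in width between the lists was not alike on the arms. On the long arm AKBA peaks were wider than DMSO peaks at each quartile, with medians of 813 and 538.5 bp and upper quartiles of 1349.5 and 879 bp. On the short arm the medians were nearer, at 736 bp for AKBA and 623 bp for DMSO peaks, and the upper quartiles were in the reverse order, 1126 and 1372.5 bp. In the DMSO list the short arm thus had the wider peaks by median, and in the AKBA list the long arm. Among peaks with a score of at least 3, the short arm's median was 1113 bp for DMSO and 961 bp for AKBA peaks. Among peaks of at least 1 kb, the long arm's median was 1737 bp for DMSO and 1660 bp for AKBA peaks. The narrowest width differed between the lists, 160 bp for DMSO and 214 bp for AKBA, as did the smallest gap between neighbouring peaks on the chromosome, 641 and 859 bp. Their part in the difference in width was not tested.

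The ratio of AKBA to DMSO peaks therefore ran differently with width on the arms. On the long arm it rose from 0.943 below 500 bp (148 AKBA and 157 DMSO peaks) to 1.59 between 500 and 999 bp and 2.57 between 1000 and 1999 bp (108 and 42 peaks), and stood at 2.39 from 2000 bp up (74 and 31). The genome as a whole ran from 1.11 to 1.60, 1.90 and 2.20. The same classes had ratios of 1.36, 2, 1.5 and 1.58 on the short arm, with 33 AKBA and 22 DMSO peaks between 1000 and 1999 bp and 41 and 26 from 2000 bp up. For all peaks of at least 1 kb the ratio was 2.49 on the long arm (interval 1.89 to 3.32) and 1.54 on the short arm (1.06 to 2.27). The intervals overlap and leave out the variation between cultures, so the contrast between the arms is a description of these 2 libraries.

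**Figure D3:**
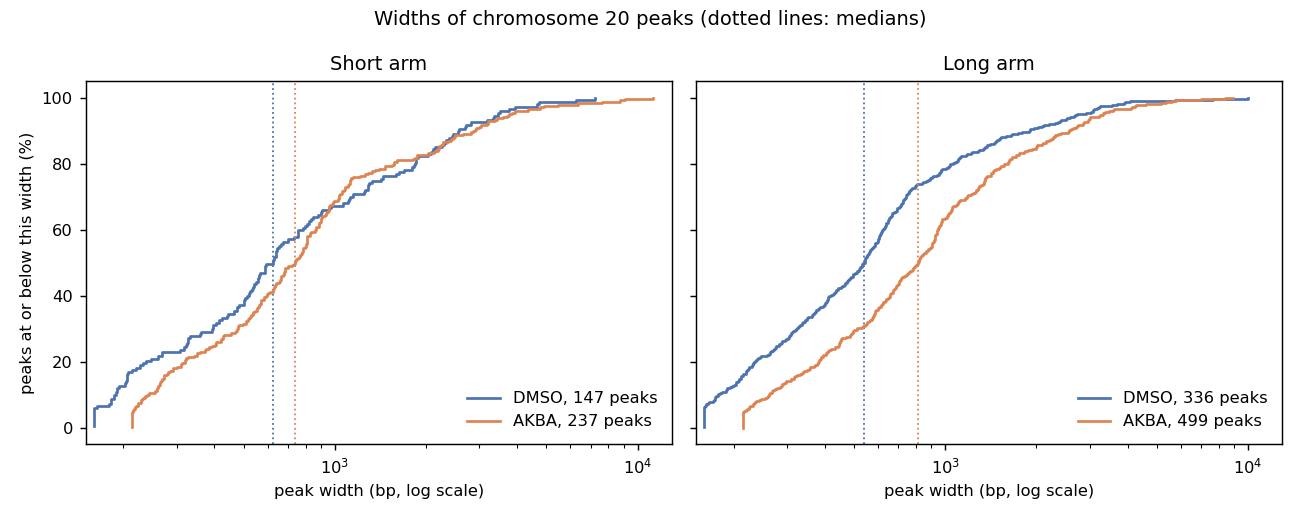
Share of peaks at or below a given width (y axis, percent) against peak width in bp on a log scale (x axis), for the short arm (left, 147 DMSO and 237 AKBA peaks) and the long arm (right, 336 and 499), with dotted lines at the medians. On the long arm the AKBA curve lies to the right of the DMSO curve over most widths, whereas on the short arm the curves cross near 1 kb.

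Broad peaks, of 2 kb or more, were a large share of the short arm's DMSO list. They made up 26 of its 147 DMSO peaks (17.7%), against 31 of 336 on the long arm (9.23%) and 9.43% in the whole DMSO list. In the AKBA list the shares were 17.3% (41 of 237) on the short arm, 14.8% (74 of 499) on the long arm and 14.0% in the whole list. Of all marked bases of the short arm, broad peaks held 52.1% in the DMSO and 54.2% in the AKBA list, against 38.5% and 43.4% on the long arm. The short arm had 4 of the 100 widest peaks of each genome-wide list. The long arm had 4 of the 100 widest DMSO peaks and 3 of the 100 widest AKBA peaks. Chromosome 20 thus had 8 and 7 of the 100 widest, beside 5.43% of all DMSO and 5.59% of all AKBA peaks.

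The 3 widest DMSO peaks of the short arm all lay between 21 and 22 Mb. The widest, chr20:21080043-21087276, spanned 7234 bp and was covered in full by an AKBA peak of 8746 bp at chr20:21079607-21088352. That AKBA peak was also the highest-scoring AKBA peak of the chromosome, with a score of 11.0 and rank 18 in the genome. The second, chr20:21682691-21688955, measured 6265 bp and was enclosed by an AKBA peak of 9081 bp. The third, chr20:21486652-21491381, measured 4730 bp and lay inside the widest AKBA peak of the arm, chr20:21486599-21497827, of 11229 bp. This AKBA peak overlapped 3 DMSO peaks, which covered 85.2% of it. The 3 widest AKBA peaks of the arm were thus at the same 3 places as the 3 widest DMSO peaks.

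The widest peak of the long arm was at 1 place in both lists. The DMSO peak chr20:37350771-37360739 measured 9969 bp, ranked 5 by width in the genome and was wider than its AKBA counterpart, chr20:37351361-37360272, of 8912 bp. The next in the DMSO list, chr20:44935023-44942672 with 7650 bp, was 1 of the 2 chromosome 20 DMSO peaks that met several AKBA peaks. It overlapped 3 of them, the widest 3290 bp, and they covered 73.8% of it. The third, chr20:61146383-61153899 with 7517 bp, was inside the second widest AKBA peak of the arm, chr20:61146031-61154444 with 8414 bp. The third widest AKBA peak, chr20:58174893-58181889 with 6997 bp, was covered to 46.4% by 3 DMSO peaks.

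The highest-scoring DMSO peak of the chromosome was not a broad one. It lay at chr20:9818925-9820341 on the short arm, measured 1417 bp, scored 9.38 and ranked 6 in the genome's DMSO list, and an AKBA peak of 2414 bp enclosed it. The long arm's top DMSO score was 7.62 at chr20:61447641-61448606, inside an AKBA peak of 2951 bp that had the third highest AKBA score of the arm, 9.30. The top AKBA score of the long arm was 10.6, at chr20:47933851-47936865, where a DMSO peak covered 79.8% of the 3015 bp. The second was 9.50, at chr20:61636159-61639733, where a DMSO peak covered 96.6%. All 6 peaks with the 3 highest AKBA scores on each arm overlapped a DMSO peak. In the DMSO list 5 of the 6 overlapped an AKBA peak. The exception, chr20:45087648-45088228 on the long arm with a score of 6.02, was 1115 bp from the nearest AKBA peak. Over all chromosomes the median AKBA score was 3.96 for peaks with an overlap and 2.74 for those without. The DMSO medians were 3.35 and 2.72. Peaks with an overlap thus scored higher by median in the whole of each list. The overlap of the highest-scoring peaks is therefore not shown to be particular to this chromosome.

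Sharing between the lists, by an overlap of at least 1 bp, was higher in value on the short arm on the DMSO side. On the short arm 93 of 147 DMSO peaks (63.3%, exact interval 54.9 to 71.1%) overlapped an AKBA peak, and on the long arm 182 of 336 (54.2%, 48.7 to 59.6%). The share over all chromosomes was 54.5%, just below the short arm's interval 54.9 to 71.1% and inside that of the long arm. The intervals of the arms overlap, and they treat neighbouring peaks as independent. On the AKBA side 73 of 237 peaks (30.8%, 24.99 to 37.1%) were shared on the short arm and 163 of 499 (32.7%, 28.6 to 37.0%) on the long arm, both near the 32.2% of the whole list. Counted in bases, 120.3 kb of the short arm were marked in both lists, 75.4% of its DMSO and 42.3% of its AKBA bases. The long arm had 177.2 kb marked in both, 62.9% and 31.0%.

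The arms had much the same share of DMSO peaks in common with the AKBA list once widths were set side by side. Below 500 bp, 38.2% of the short arm's and 37.6% of the long arm's DMSO peaks were shared, and between 500 and 999 bp 54.5% and 51.9%. Over all chromosomes these classes had 33.9% and 53.4%, so the rise with width was general. All 48 DMSO peaks of at least 1 kb on the short arm overlapped an AKBA peak, as did 68 of the 73 on the long arm. Over all chromosomes 153 of 2243 such peaks had no overlap, near the long arm's 5 of 73. Peaks of at least 1 kb were 32.7% of the short arm's DMSO list and 21.7% of the long arm's. The median width of DMSO peaks in common was 1103 bp on the short arm and 726 bp on the long arm, and that of DMSO peaks without an AKBA overlap 397 and 375 bp. Among AKBA peaks of 2 kb or more, 39 of 41 (95.1%, interval 83.5 to 99.4%) were shared on the short arm and 62 of 74 (83.8%, 73.4 to 91.3%) on the long arm. The share over all chromosomes, 89.0%, lay inside both intervals.

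**Figure D4:**
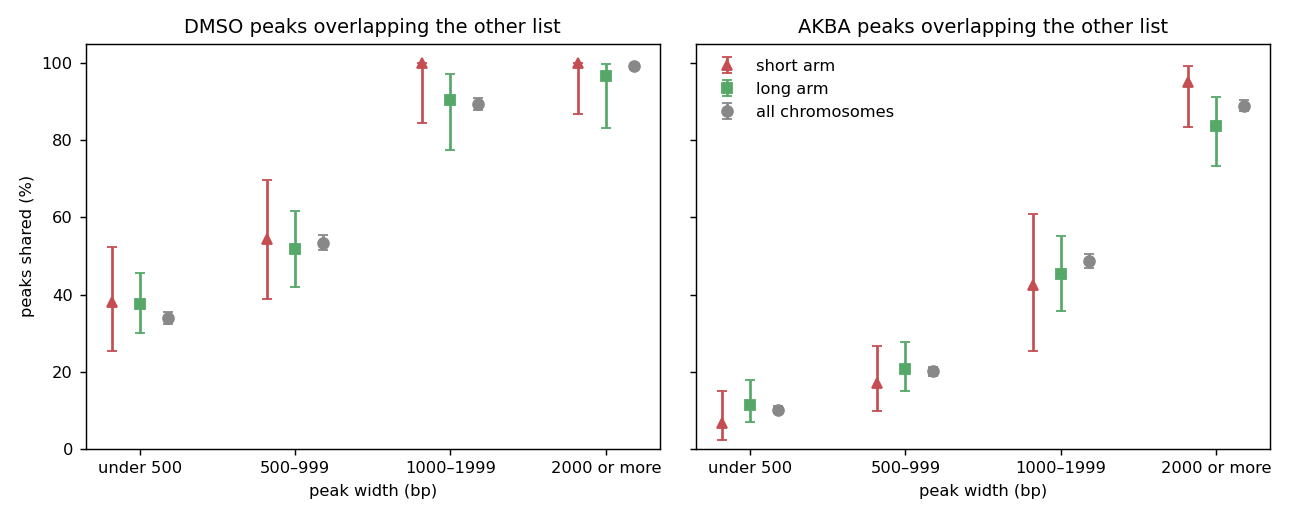
Percent of DMSO peaks (left) and AKBA peaks (right) that share 1 bp or more with a peak of the other list (y axis), in 4 classes of peak width in bp (x axis), for the short arm, the long arm and all chromosomes, with exact 95% binomial intervals as bars. Shares climb with width, except that the short arm's DMSO peaks reach 100% in both of the widest classes, and in each class the intervals of the arms overlap, as at 38.2% and 37.6% for DMSO peaks below 500 bp.

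Among peaks found in 1 list alone, the share within 5 kb of a peak of the other list was higher in value on the long arm than on the short arm, in both lists. Of the long arm's 154 DMSO peaks without an overlap, 97 (63.0%) lay within 5 kb of an AKBA peak, at a median distance of 2.79 kb. On the short arm 26 of 54 (48.1%) did so, with a median of 5.40 kb. Over all chromosomes the share was 43.8% and the median 7.56 kb. For AKBA peaks without an overlap, 133 of 336 on the long arm (39.6%) and 47 of 164 on the short arm (28.7%) were within 5 kb of a DMSO peak, against 27.3% over all chromosomes. From 56 Mb to the end of the long arm the shares were 70.5% for DMSO and 52.3% for AKBA peaks, and on the rest of that arm 55.3% and 26.2%. Both lists were denser there, and the part of density in these distances was not tested.

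The widest DMSO peak without an AKBA overlap was chr20:47028889-47031194 on the long arm, of 2306 bp, with an AKBA peak 1195 bp away. It was the only DMSO peak of 2 kb or more on the chromosome without an overlap. The widest of the short arm measured 881 bp, at chr20:21711397-21712277. In the AKBA list the widest without a DMSO overlap was chr20:37546894-37549866 on the long arm, of 2973 bp and 103.8 kb from the nearest DMSO peak. The next, chr20:62796577-62799425 with 2849 bp, was 447 bp from a DMSO peak. The short arm's widest was chr20:703575-705931 with 2357 bp, at 3049 bp from a DMSO peak.

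The window from 59 to 60 Mb held the least shared of the dense stretches. Of its 20 DMSO peaks 5 overlapped an AKBA peak, and of its 44 AKBA peaks 4 overlapped a DMSO peak. Its peaks were also narrow, by median 313.5 bp for DMSO and 543 bp for AKBA. In the window from 61 to 62 Mb, by contrast, 28 of 36 DMSO peaks and 25 of 56 AKBA peaks had an overlap, with medians of 751 and 882 bp. Within the short arm the window from 21 to 22 Mb had the greatest covered length, 37.3 kb of DMSO and 47.9 kb of AKBA peaks. It had 1 AKBA peak fewer than DMSO peaks, 19 against 20, and wide AKBA peaks there spanned several DMSO peaks. Its ratio of covered length was 1.29, against a median of 1.79 over the short arm's windows with a DMSO peak.

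Where peaks overlapped one to one, the AKBA peak was the wider in 34 of 55 pairs on the short arm (61.8%, interval 47.7 to 74.6%) and in 102 of 140 pairs on the long arm (72.9%, 64.7 to 80.0%). Over all chromosomes it was wider in 73.1% of pairs. The median difference was 154 bp on the short arm and 410.5 bp on the long arm, against 404 bp over all chromosomes. Single AKBA peaks that overlapped several DMSO peaks numbered 18 on the short arm and 20 on the long arm, with at most 3 DMSO peaks in 1 AKBA peak. The short arm thus had nearly as many as the long arm from 237 against 499 AKBA peaks. Over all chromosomes 583 of 13155 AKBA peaks overlapped several DMSO peaks, a share near that of the long arm. A single DMSO peak overlapped several AKBA peaks once on each arm, and 84 of 8890 DMSO peaks did so over all chromosomes.

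When neighbouring peaks of either list no more than 5 kb apart were joined into domains, the short arm had 185 of them and the long arm 380. Both lists contributed to 71 of those on the short arm and 165 on the long arm, AKBA alone to 87 and 161, and DMSO alone to 27 and 54. Domains of at least 10 kb numbered 11 and 29. Of these, 8 on the short arm and all 29 on the long arm held peaks of both lists, and AKBA peaks covered more bases in 8 of 8 and in 27 of 29. Domain counts over all chromosomes are not at hand, so these are not shown to be particular to chromosome 20. AKBA peaks covered 1.94 times the DMSO length over all chromosomes. Among domains of at least 10 kb with peaks of both lists, those of the short arm were more filled. Their median coverage was 44.7% by DMSO and 63.4% by AKBA peaks on the short arm (8 domains), and 17.03% and 35.1% on the long arm (29). These medians leave out the short arm's long domains without a DMSO peak, such as chr20:766471-778737, which AKBA peaks covered to 27.2%.

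The longest domain of the chromosome was on the short arm at chr20:22530157-22571881 and spanned 41.7 kb. It held 7 DMSO peaks with 13.6 kb and 12 AKBA peaks with 20.2 kb. Its DMSO peaks began 10.6 kb inside the domain, and its first 4 peaks, of 214 to 932 bp, were AKBA peaks alone. The second longest of the short arm, chr20:21486599-21506556, was the most completely marked among the 3 longest domains of each arm. Over 19.96 kb, 2 AKBA peaks covered 94.4% and 5 DMSO peaks 73.7%. The third longest of the short arm, chr20:21678887-21697823, had 4 AKBA peaks over 58.5% and 5 DMSO peaks over 49.7% of its 18.9 kb.

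The 3 longest domains of the long arm were sparser and all lay in its dense end. At chr20:61621968-61658965, over 37.0 kb, 9 DMSO peaks covered 37.0% and 8 AKBA peaks 43.1%. At chr20:56126756-56163007, over 36.3 kb, 8 DMSO peaks covered 17.7% and 8 AKBA peaks 39.2%. At chr20:57140895-57173023, over 32.1 kb, 7 DMSO peaks covered 13.9% and 6 AKBA peaks 35.1%. Covered length in the AKBA list was 1.16 times the DMSO length in the first of these, and 2.22 and 2.53 times in the others. In the short arm's 3 domains it was 1.48, 1.28 and 1.18 times, in order of length. The longest domain without a DMSO peak was chr20:766471-778737 on the short arm, with 4 AKBA peaks over 12.3 kb. The longest without an AKBA peak was chr20:58807746-58812788 on the long arm, with 2 DMSO peaks over 5.04 kb.

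**Figure D5:**
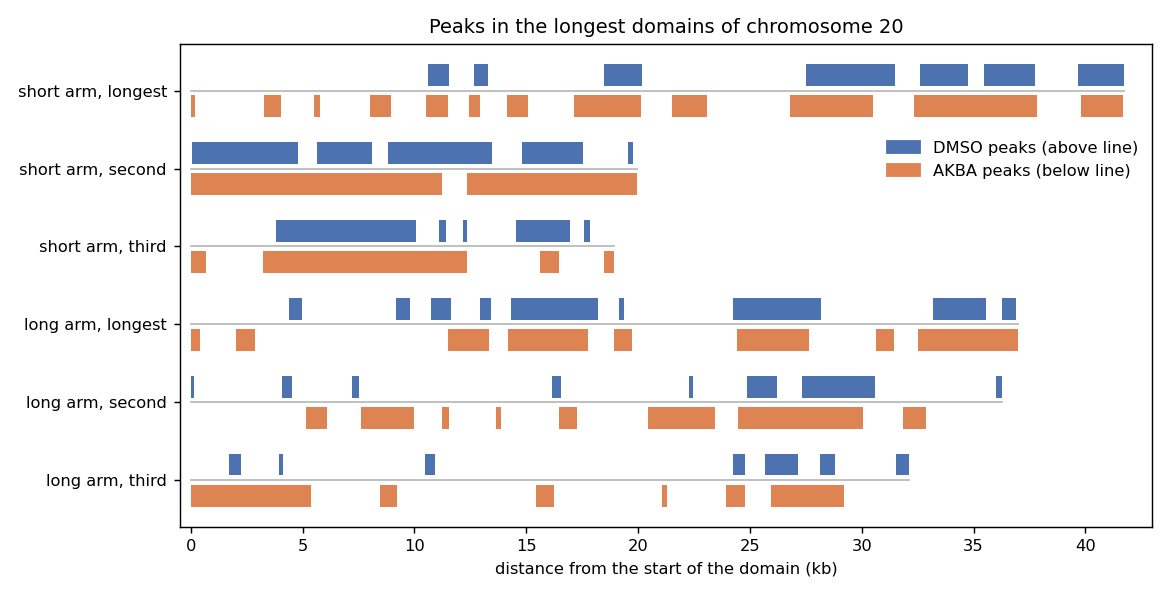
Peaks of both lists in the 3 longest domains of each arm, drawn to scale as boxes against the distance in kb from the start of the domain (x axis), with DMSO peaks above and AKBA peaks below each grey line. The second short-arm domain is nearly filled, 94.4% by AKBA and 73.7% by DMSO peaks, whereas the second and the third long-arm domains hold small DMSO peaks that cover 17.7% and 13.9%.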

How the data were processed

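H3K27me3 immunoprecipitation libraries of DMSO-treated and AKBA-treated HaCaT cells were compared, 1 library per condition, and the 2 input libraries were not used here. BWA, STAR and MACS2 (no versions) and the build hg19 are named per the submitters' processing notes. Threshold, input use and duplicate handling are not stated in the sources at hand. The authors deposited 1 peak list per library, with start and end positions and a score whose scale is not stated. Positions were used as the authors deposited them and written as 1-based coordinates.

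Computation used scipy 1.17.1, pandas 2.3.3 and numpy 2.4.6 in Python 3.11.15. Peaks were shared when they overlapped by at least 1 bp, windows were 1 Mb wide and aligned to whole Mb, and domains joined peaks across gaps of up to 5 kb. On simulated lists, overlap and joining gave the counts of bedtools 2.31.1. Named were the 3 widest and 3 highest-scoring peaks of each arm and list, the 2 widest without overlap, the peaks nearest the centromere, the 3 densest windows and 3 longest domains of each arm, and the 3 windows with the greatest difference in each direction. Other windows and the longest domains found in 1 list alone were named after their values were seen. The members, rules and lists were chosen with earlier results of these data known. The gene lists, and sequences of the regions, were not analysed here, because no hg19 annotation or genome was used. With 1 library per condition there was no test, and exact binomial intervals cover counting error only. Depth is unknown.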

Additional observations from a re-analysis of the deposited data

How the results depend on the processing

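Of 94 values recomputed under alternatives, 44 stayed within the interval or the printed value of the main setting and 50 did not. Part of these values were AKBA to DMSO ratios of peak number or covered length, and none of those fell below 1. Chromosome 20 stayed first of 23 in both lists under each of the 5 alternatives for its rank. In the order short arm, long arm, the covered-length ratio was 1.60 and 2.10 with a score of at least 3, 1.48 and 1.68 with equal peak numbers (the 8890 highest-scoring of each list), 1.71 and 2.40 for peaks of at least 1 kb, and 2.03 and 2.01 with peaks merged within 5 kb, where the short arm was no longer lower. The peak ratio was 1.14 and 1.07 with equal peak numbers, which removes AKBA peaks alone, and 2.49 on the long arm for peaks of at least 1 kb. Median widths (short arm DMSO and AKBA, then long arm DMSO and AKBA) were 1113, 961, 627.5 and 964.5 bp with a score of at least 3, where the short arm's DMSO median exceeded its AKBA median. They were 2095, 2200, 1737 and 1660 bp for peaks of at least 1 kb, where the long arm's DMSO median exceeded its AKBA median. Merged peaks gave 753, 897, 651 and 1159 bp, and lists without their narrowest peaks, an alternative chosen after seeing the data, 641, 771, 560.5 and 839 bp. With the same number of peaks the AKBA medians were 802 and 926 bp. Without 56 Mb to the end of the long arm, also chosen after seeing the data, the long arm's medians were 518 and 751 bp. The densest 10 Mb held 42.9% of DMSO and 43.6% of AKBA peaks in windows of 2 Mb, and 54.7% of DMSO covered bases. The long arm held 65.0% of DMSO peaks with a score of at least 3 and 63.8% of DMSO bases. Shared DMSO peaks (short arm, long arm) were 26.5% and 18.5% at 50% reciprocal overlap, against 20.8% over all chromosomes. Within 1 kb they were 70.7% and 65.8%, against 63.3%. They were 95.8% and 86.3% for peaks of at least 1 kb, and 73.5% and 59.1% with a score of at least 3. Shared AKBA peaks were 16.46% and 12.4% at 50% reciprocal overlap, against 14.0% over all chromosomes. Within 1 kb they were 36.7% and 39.7%, against 37.7%. With the same number of peaks they were 41.3% and 41.8%. They were 43.6% and 33.3% with a score of at least 3, and 55.4% and 34.1% for peaks of at least 1 kb. For the settings given without a share over all chromosomes, that share is not at hand. Of the 38 peaks picked by rule, 25 overlapped a peak of the other list, and 16 did so at 50% reciprocal overlap. These 38 include the widest peaks without overlap, picked for having none, and the peaks nearest the chromosome ends. The count of 25 therefore reflects how the peaks were picked and is no estimate of sharing. The cause was not tested for any of these shifts. No paired analysis was possible because each condition has 1 library. Unknown depth and 1 library per condition limit each comparison.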
